A study of Mus musculus with 24 samples.

Results

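The renin-angiotensin system was followed in the kidney after myocardial infarction (MI) through 8 genes, Ren1, Agt, Ace, Agtr1a, Enpep, Mme, Atp6ap2 and Mas1, out of 56941 genes in the deposited table. These genes were chosen by name, as components of the pathway, with earlier results of these data known. All 8 passed the filter on low counts, as did 12780 genes in all. Renal RNA came from young adult male C57BL/6 J wild-type mice, a strain that carries Ren1 and not the duplicated gene Ren2. The groups were sham-operated mice (8 kidneys), mice at 5d post-MI (8 kidneys) and mice at 28d post-MI (6 kidneys). For MI, the left anterior descending coronary artery was tied off for good, and sham mice were operated on without this step. The same sham kidneys, taken 5d after the operation, stood against both times, and at 28d the infarction and the longer time since surgery cannot be told apart. Of the 24 listed kidneys, 1 at 5d and 1 at 28d were not used, because their columns share a name.

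Renin, released by the juxtaglomerular cells of the afferent arteriole, cleaves angiotensinogen to angiotensin I, and angiotensin-converting enzyme turns this into angiotensin II. Angiotensin II acts on the AT1 receptor to constrict vessels, retain sodium and suppress renin in a negative feedback. Peptidases at the tubular brush border either inactivate these peptides or convert them to angiotensin-(1-7), the ligand of the Mas receptor, and the proximal tubule makes and takes up angiotensinogen itself.

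Total counts lay between 2280618 and 3786275 per kidney. Levels are given as CPM at TMM-scaled library sizes (normalized CPM). The libraries were made by MACE, which reads the 3′ end of each transcript, so that values are not divided by length, and levels are compared between kidneys and not between genes. All proximal tubule markers of the fixed list had counts in every group, as the kidney label requires. RNA of the adjoining adrenal cortex was present in 3 kidneys, with summed markers of 966 and 719 CPM in sham replicates 2 and 6 and 84.0 CPM in 5d post-MI replicate 5, against at most 4.27 CPM elsewhere. Other summed markers moved with the groups. Immediate early response genes were at 418 ± 212 CPM (SD, n = 8) at 5d, against 1164 ± 305 in sham kidneys (n = 8) and 1579 ± 580 at 28d (n = 6). Red blood cell genes were at 9860 ± 4524 CPM at 5d, against 3528 ± 614 and 2860 ± 1202. Markers of tissue around the kidney were highest in sham and lowest in 28d kidneys, with wide spread: adipocyte genes at 725 ± 328, 553 ± 309 and 387 ± 171 CPM in sham, 5d and 28d kidneys, brown adipocyte genes at 173 ± 107, 112 ± 91.4 and 42.0 ± 29.4, and urothelium genes at 33.1 ± 14.2, 20.3 ± 15.0 and 17.98 ± 3.89, and none of these genes was called. In whole-kidney RNA, fewer cells of a type and less RNA per cell cannot be told apart.

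The promoters of the called genes, Ren1 and Enpep, are shown with that of Agt, the substrate of renin. Each sequence is the 250 bases before the RefSeq start, 5′ to 3′ on the gene's own strand, from GRCm38.p6, at chr1:133350424-133350673 (plus strand) for Ren1, chr3:129332750-129332999 (minus strand) for Enpep and chr8:124569707-124569956 (minus strand) for Agt. Capitals mark every match, on either strand, to the TATA box motif TATANA, to the cyclic AMP response half-site TGACG or to the CCAAT box.
Ren1: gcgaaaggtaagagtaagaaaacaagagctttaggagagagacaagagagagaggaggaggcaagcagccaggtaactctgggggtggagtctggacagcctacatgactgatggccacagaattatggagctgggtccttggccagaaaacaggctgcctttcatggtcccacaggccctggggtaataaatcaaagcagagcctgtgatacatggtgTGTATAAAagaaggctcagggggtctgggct
Agt: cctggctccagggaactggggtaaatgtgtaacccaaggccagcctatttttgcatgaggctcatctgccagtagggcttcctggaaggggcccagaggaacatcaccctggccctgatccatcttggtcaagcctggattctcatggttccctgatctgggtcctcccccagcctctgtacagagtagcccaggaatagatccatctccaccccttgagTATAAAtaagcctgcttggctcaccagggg
Enpep: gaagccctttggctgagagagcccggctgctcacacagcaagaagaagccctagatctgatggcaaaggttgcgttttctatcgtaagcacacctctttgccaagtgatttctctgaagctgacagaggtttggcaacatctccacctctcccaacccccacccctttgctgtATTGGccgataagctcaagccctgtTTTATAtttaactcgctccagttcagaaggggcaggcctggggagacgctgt
TATAAA stood 29 bases before the start of Ren1 and 30 bases before that of Agt on the strand of the gene. In Ren1 the capitals begin with an overlapping match on the other strand. In Enpep the TATA box motif and the CCAAT box each matched once, on the other strand. The cyclic AMP half-site was in none of the 3 windows. Of the 32851 RefSeq windows of this length, the TATA box motif was found in 22.6%, the cyclic AMP half-site in 17.8% and the CCAAT box in 33.8%. Windows were given for 7 of the 8 members, and Agtr1a had none.

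Over the whole system, 28d against 5d post-MI was the comparison with called genes. Both called members, Ren1 and Enpep, were lower at 28d than at 5d (edgeR's quasi-likelihood test, Benjamini-Hochberg adjusted p under 0.05 over all genes tested). That is 2 of 8 members, where 0.415% of all tested genes were called in either direction, 0.336% higher and 0.0782% lower. None of the 8 was called at 5d against sham, where 0.0704% of tested genes were called and 0.0548% called higher, and none at 28d against sham, where 0.0235% were called. At an unadjusted p under 0.05, 5 of 8 members passed in each comparison, against 7.9%, 8.68% and 9.05% of all genes at 5d against sham, 28d against sham and 28d against 5d. Those at 5d against sham were Ren1, Agt, Enpep and Mme, which were higher, and Agtr1a, which was lower, where 3.92% of all genes passed higher and 3.97% lower. Those at 28d against sham were Ace and Mme on the higher side (4.45% of all genes) and Agtr1a, Enpep and Atp6ap2 on the lower side (4.23%). At 28d against 5d, Ace was higher (5.03%) and Ren1, Agt, Enpep and Atp6ap2 were lower (4.01%). The groups did not overlap for 0 of 8 members at 5d against sham (0.0548% of all genes), 0 of 8 at 28d against sham (0.258%) and 1 of 8, Ren1, at 28d against 5d (0.344%). The median log2 fold change of the members was 0.083, −0.087 and −0.095 in this order, beside medians of at most 0.0046 in size over all genes tested. As the members were chosen with earlier results of these data known, these shares are a description and not a test.

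**Figure D1:**
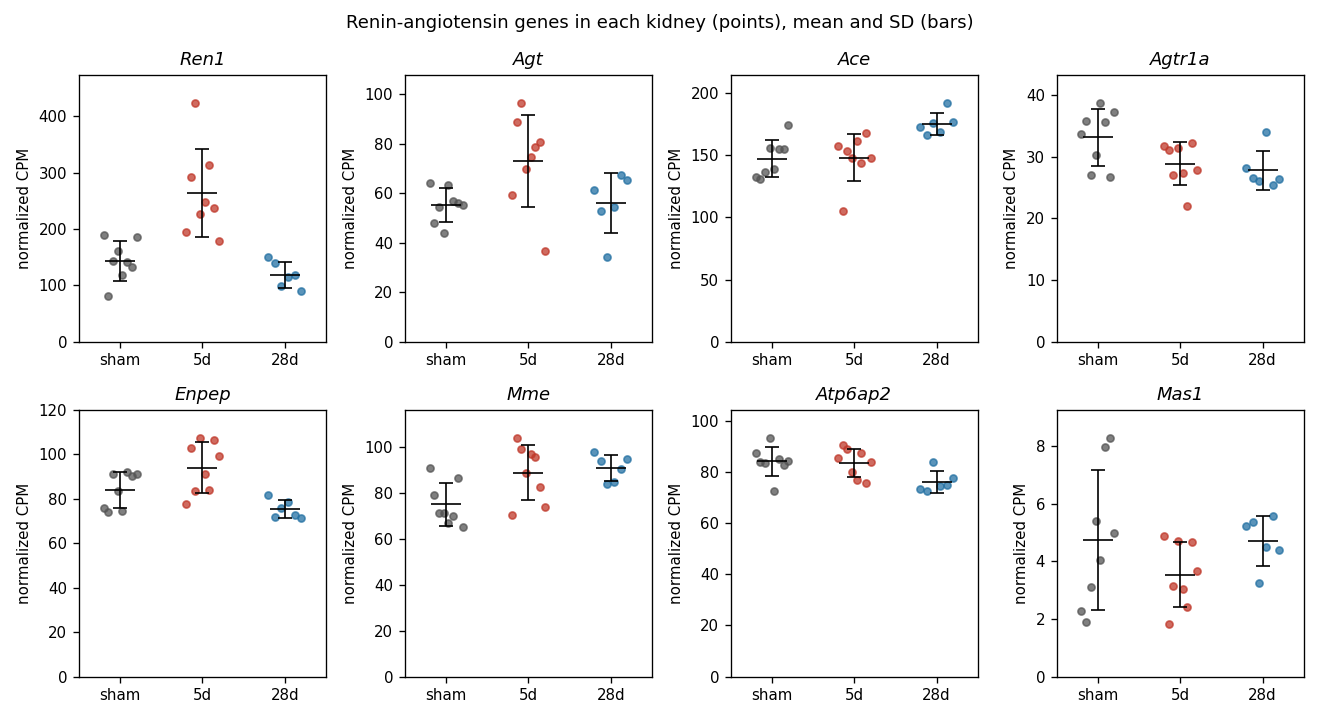
Normalized CPM (vertical axes, from 0) of the 8 renin-angiotensin genes in each kidney at sham, 5d and 28d post-MI. Points are kidneys, wide bars the group mean and whiskers the SD; in the Ren1 panel the 6 kidneys at 28d lie at 90.3 to 150.9, all below the 8 kidneys at 5d.

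Ren1 codes for renin, the protease that sets the rate of angiotensin formation. In sham kidneys Ren1 lay between 80.8 and 188.5 normalized CPM, with a median of 141.5. At 5d post-MI it lay between 178.4 and 422.8, with a median of 242.4. At 28d it lay between 90.3 and 150.9, with a median of 116.2. The groups at 5d and 28d did not overlap, while 7 of 8 kidneys at 5d were above every sham kidney and the other, at 178.4, was within the sham range.

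From 5d to 28d the level of Ren1 fell by 1.15 on the log2 scale (SE 0.20, n = 8 and 6), to 0.449 of the 5d level (95% interval 0.334 to 0.604), with an edgeR adjusted p of 0.00886. An exact permutation test of log2 CPM gave p = 0.000333, two-sided, the smallest that 8 and 6 kidneys allow. Leaving out any 1 kidney kept the call, with adjusted p between 0.00467 and 0.0297. At 5d against sham, Ren1 was 1.83 times the sham level (95% interval 1.41 to 2.38; log2 fold change 0.87, SE 0.18) and ranked 14th of 12780 genes by p, but its edgeR adjusted p was 0.10. The exact permutation p for this single gene was 0.00062. Without 5d post-MI replicate 1, at 194.4 normalized CPM, the adjusted p was 0.0364, and DESeq2 gave 0.00185. At 28d against sham the log2 fold change was −0.28 (95% interval −0.71 to 0.14), adjusted p = 0.765.

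Ren1 kept its size but not its call when markers that differ between 5d and 28d entered the fit. With immediate early genes as a covariate, the log2 fold change of 28d against 5d was −1.17 with an adjusted p of 0.404, and with red blood cell genes it was −1.16 with an adjusted p of 0.604. No tested gene was called at 28d against 5d in either fit, so the lost call was not particular to Ren1. Of the 9 immediate early genes 8 were called higher at 28d than at 5d, and all 4 tested red blood cell genes were called lower. Summed immediate early genes ranged from 130 to 741 CPM at 5d and from 995 to 2461 at 28d, without overlap. Summed red blood cell genes ranged from 4968 to 19090 CPM at 5d and from 1795 to 5122 at 28d. Markers of mural and smooth muscle cells, the lineage of the juxtaglomerular cells, summed to 193 ± 13.9 CPM in sham kidneys, 167 ± 17.1 at 5d and 167 ± 22.03 at 28d, and none of the 7 was called. At an unadjusted edgeR p under 0.05, 4 of the 7 were lower at 5d against sham (3.97% of all genes) and 3 at 28d against sham (4.23%), and 0 were higher. Kidneys with adrenal RNA left out, Ren1 at 28d against 5d was −1.18 (adjusted p = 0.0121) and at 5d against sham 0.80 (adjusted p = 0.253). Podocyte markers summed to 196 ± 13.1, 229 ± 24.0 and 214 ± 27.05 CPM in sham, 5d and 28d kidneys, and with them as a covariate the 5d difference of Ren1 from sham was 0.66 (adjusted p = 0.829). In that fit no tested gene was called at 5d against sham.

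Genes of renin release did not pass the test with Ren1. Of 23 such genes 20 were tested and none was called in any of the 3 comparisons, with median log2 fold changes of −0.027, −0.051 and −0.033. Akr1b7, an aldo-keto reductase of juxtaglomerular cells that the adrenal cortex also makes, had a median of 5.59 normalized CPM in sham kidneys but reached 100.5 in the sham group, and medians of 5.87 at 5d and 5.27 at 28d. Ptgs2, the cyclooxygenase of the macula densa, was too low to test, at 1.97 ± 0.95, 1.17 ± 1.17 and 2.33 ± 0.92 normalized CPM. Creb1, a transcription factor of cyclic AMP signalling, had log2 fold changes of 0.10, 0.23 and 0.13 (adjusted p = 0.820, 0.444 and 0.742).

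Agt, angiotensinogen, is the only known substrate of renin. It lay between 44.0 and 64.3 normalized CPM in sham kidneys (median 55.6), between 36.7 and 96.3 at 5d (median 76.5), and between 34.2 and 67.5 at 28d (median 57.9). At 5d, 6 of 8 kidneys were above every sham kidney and 1, replicate 9, was below every one. The log2 fold change at 5d against sham was 0.40 (SE 0.16, edgeR adjusted p = 0.549). At 28d it was 0.02 against sham (adjusted p = 0.991) and −0.38 against 5d (adjusted p = 0.534).

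Ren1 and Agt were not shown to vary together within groups. Over 22 kidneys, after each group's mean was taken away, the correlation was r = 0.524 (permutation p = 0.0152, adjusted over 28 pairs 0.142) and Spearman's coefficient was 0.423 (p = 0.0606, adjusted 0.339), and r was 0.462 without the 2 kidneys farthest from the median. Within groups r was 0.821 at 5d, 0.275 in sham kidneys and 0.228 at 28d, a difference that was not tested. The normalized CPM of Ren1 divided by that of Agt was 2.62 ± 0.68 in sham kidneys, 3.67 ± 0.674 at 5d and 2.21 ± 0.575 at 28d, and the lowest value at 5d, 2.93, was above the highest at 28d, 2.90. Ren1 alone also did not overlap between 5d and 28d, so the ratio gives no separate result on Agt.

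**Figure D2:**
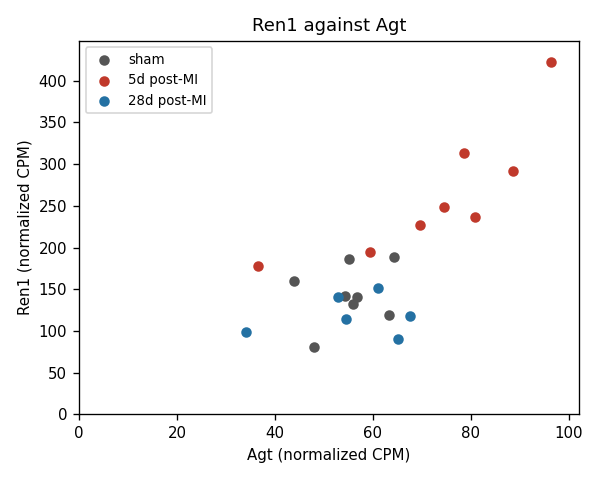
Normalized CPM of Ren1 (vertical axis) against Agt (horizontal axis), 1 point for each of 22 kidneys, coloured by group, both axes from 0. The 5d kidneys extend to 422.8 for Ren1 and 96.3 for Agt, and 1 of them, replicate 9, has 178.4 for Ren1 and 36.7 for Agt.

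Ace codes for the angiotensin-converting enzyme, which makes angiotensin II. Ace lay between 130.7 and 173.9 normalized CPM in sham kidneys (median 146.5), between 105.1 and 167.6 at 5d (median 150.6), and between 166.5 and 191.5 at 28d (median 174.1). The 28d kidneys were the highest, with 5 of 6 above every 5d kidney and 3 of 6 above every sham kidney. Ace was not called: the log2 fold change was 0.25 (SE 0.073) at 28d against sham with an edgeR adjusted p of 0.262, 0.25 (SE 0.074) against 5d with 0.173, and 0.00 (95% interval −0.14 to 0.14) at 5d against sham with 0.998. Exact permutation tests of Ace alone gave p = 0.00333 and 0.00266 at 28d against sham and against 5d.

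Proximal tubule markers, from the segment whose brush border carries Ace, were summed at 59060 ± 3719 CPM in sham kidneys, 58850 ± 10350 at 5d and 70220 ± 3396 at 28d, and the kidney with the lowest Ace (5d replicate 2) had the lowest sum, 37230. Most of this sum was Kap, the kidney androgen-regulated protein, named after its values were seen, at 48620 ± 3194, 48710 ± 9722 and 58960 ± 3281 normalized CPM. The other 11 markers summed to 10440 ± 923 CPM in sham kidneys, 10140 ± 844 at 5d and 11260 ± 787 at 28d, again with the lowest sum, 8745, in 5d replicate 2. The members Mme and Enpep were not low in that kidney, at 103.6 and 103.0 normalized CPM, against 5d medians of 91.9 and 95.1. The correlation of Ace with these markers across kidneys was not tested. Of the 12 markers 11 were tested, with 10 higher and 1 lower at 28d against sham, and 8 higher and 3 lower against 5d. At an unadjusted edgeR p under 0.05, 4 were higher and 1 lower against sham (4.45% and 4.23% of all genes). Against 5d, 6 were higher and 1 lower (5.03% and 4.01%). Slc5a12, a lactate transporter of the list, had the opposite sign, at 38.5 ± 5.92, 39.1 ± 6.09 and 30.6 ± 4.18 normalized CPM, and none of the markers was called. A covariate was the mean log2 CPM of all 12 markers at equal weight, also of Slc5a2, with at most 3 counts in a kidney. With this covariate in the edgeR fit, the log2 fold change of Ace at 28d was 0.17 against sham (adjusted p = 0.706) and 0.16 against 5d (adjusted p = 0.580). Without the filter on low counts Ace was called in both, with adjusted p of 0.0364 and 0.0334.

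Of 17 other angiotensin-processing enzymes and receptors 11 were tested and none was called, with medians of −0.025, −0.011 and −0.013. Prep, a prolyl endopeptidase that also forms angiotensin-(1-7), had −0.29 at 28d against sham (adjusted p = 0.484).

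**Figure D3:**
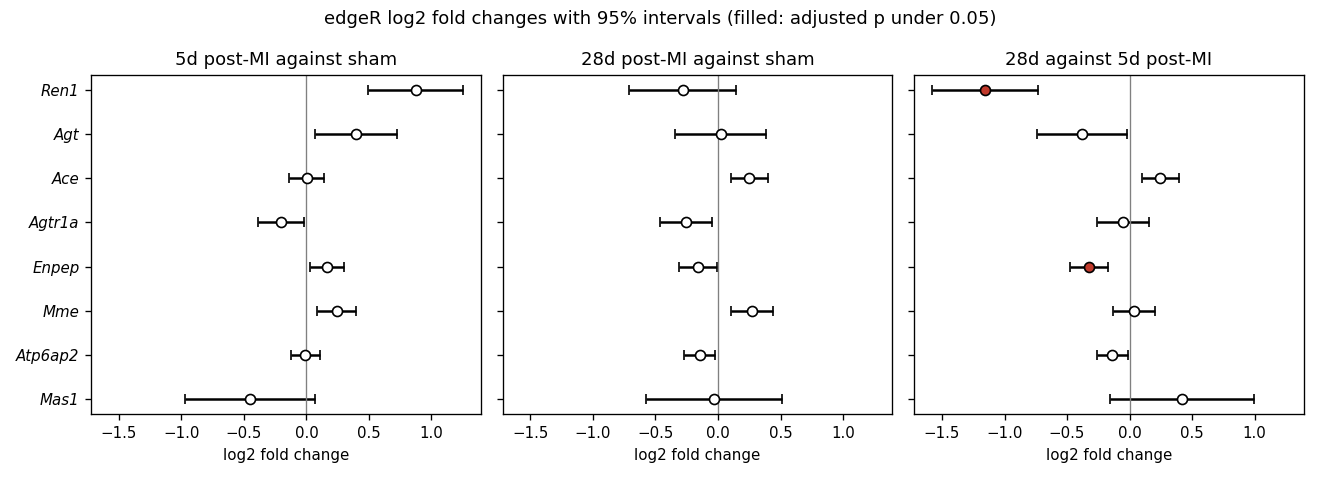
Log2 fold changes (horizontal axes) of the 8 members in the 3 comparisons, from 1 edgeR fit, with 95% intervals; filled points have an adjusted p under 0.05 over all genes. Ren1 at −1.15 and Enpep at −0.32, both at 28d against 5d, are the filled points.

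Agtr1a codes for the AT1 receptor, the main site of angiotensin II action in the kidney. It lay between 26.8 and 38.6 normalized CPM in sham kidneys (median 34.7), between 21.97 and 32.2 at 5d (median 29.4) and between 25.4 and 34.0 at 28d (median 26.4). The groups overlapped, with 4 of 6 kidneys at 28d below every sham kidney. Log2 fold changes were −0.20 (SE 0.092) at 5d and −0.25 (SE 0.10) at 28d against sham, with edgeR adjusted p of 0.587 and 0.454, and −0.05 (95% interval −0.26 to 0.16) at 28d against 5d.

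The other angiotensin II receptors were near 0. Agtr1b had at most 1 count and Agtr2, the AT2 receptor, at most 4 counts in a kidney, and where a count was 0, up to 3 counts are allowed by counting error. Agtrap, which promotes internalization of the AT1 receptor, was at 77.5 ± 10.4, 78.3 ± 5.20 and 77.0 ± 5.26 normalized CPM in sham, 5d and 28d kidneys. Among 20 genes of AT1 receptor signalling none was called, with medians of 0.004, 0.019 and 0.037. Arap1 and Rgs5, a recycling factor of the receptor and an inhibitor of its G proteins, had the lowest p of the list, with −0.29 at 5d against sham (adjusted p = 0.549) and −0.23 at 28d against 5d (adjusted p = 0.403).

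Mas1, the receptor of angiotensin-(1-7), was read from 5 to 30 counts in a kidney. It lay between 1.88 and 8.28 normalized CPM in sham kidneys (median 4.53), between 1.83 and 4.89 at 5d (median 3.41) and between 3.25 and 5.56 at 28d (median 4.86). No difference was detectable at this depth: the log2 fold changes were −0.45 (95% interval −0.97 to 0.07), −0.03 (−0.57 to 0.52) and 0.42 (−0.16 to 0.999) at 5d against sham, 28d against sham and 28d against 5d, with edgeR adjusted p of 0.707, 0.991 and 0.727. Counting alone gives a CV of 25.7% in sham kidneys, where the measured CV was 51.0%. At 5d and 28d the measured CV was 32.09% and 18.27%, against 31.05% and 28.1% from counting alone.

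Enpep, aminopeptidase A, removes the first residue of angiotensin II and so makes angiotensin III. It lay between 74.0 and 92.1 normalized CPM in sham kidneys (median 86.8), between 77.8 and 107.2 at 5d (median 95.1) and between 71.5 and 81.7 at 28d (median 74.4). At 28d 4 of 6 kidneys were below every 5d kidney, and the other 2 lay within the lower part of the 5d range. From 5d to 28d Enpep fell by 0.32 on the log2 scale (SE 0.075), to 0.800 of the 5d level (95% interval 0.720 to 0.889), edgeR adjusted p = 0.0345 and exact permutation p = 0.00366. Its differences from sham had opposite signs and were not called, 0.16 at 5d (adjusted p = 0.549) and −0.16 at 28d (adjusted p = 0.558).

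The call for Enpep was close to the threshold, and the pseudogene Gm42628 lies within the gene, so that its reads could not be told apart. The call was lost without any 1 of 5d replicates 2, 5, 8 and 9 and of 28d replicates 2, 3, 4, 6 and 7, with adjusted p between 0.0519 and 0.101, and kept without any 1 of the other 13 kidneys. With the proximal tubule markers as a covariate it was −0.35 (adjusted p = 0.0337), and with immediate early genes −0.13 (adjusted p = 0.901). In the fit with immediate early genes no tested gene was called at 28d against 5d.

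Mme, neprilysin, cleaves angiotensin I to angiotensin-(1-7) and also degrades natriuretic peptides. It lay between 64.9 and 90.7 normalized CPM in sham kidneys (median 71.0), between 70.2 and 103.6 at 5d (median 91.9) and between 83.8 and 97.8 at 28d (median 92.0). Of the infarcted mice, 4 of 8 at 5d and 3 of 6 at 28d were above every sham kidney. Mme was not called, with log2 fold changes of 0.24 (SE 0.076, edgeR adjusted p = 0.366) at 5d and 0.28 (SE 0.082, adjusted p = 0.267) at 28d against sham, and 0.03 (95% interval −0.13 to 0.20) at 28d against 5d. Without the filter on low counts the 28d value was called (adjusted p = 0.0494).

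Atp6ap2 is the (pro)renin receptor and an accessory subunit of the vacuolar proton pump. It lay between 72.8 and 93.3 normalized CPM in sham kidneys (median 84.2), between 75.8 and 90.5 at 5d (median 84.8) and between 72.7 and 84.2 at 28d (median 74.8). Its CV of 6.77% in sham kidneys was close to the 6.16% that counting alone gives. Log2 fold changes were −0.01 at 5d (95% interval −0.12 to 0.11) and −0.15 at 28d (SE 0.062) against sham, with edgeR adjusted p of 0.988 and 0.494, and −0.14 at 28d against 5d (adjusted p = 0.508). Of 20 other subunits of the pump none was called, with medians of 0.016, 0.037 and −0.003. Atp6v0a4, the kidney form of subunit a, had −0.19 at 28d against 5d (adjusted p = 0.315), and Atp6v1e1 had 0.10 at 5d against sham (adjusted p = 0.549).

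Downstream of angiotensin II, aldosterone acts on the distal nephron through the mineralocorticoid receptor Nr3c2. Of 12 genes of this arm 11 were tested and none was called, with medians of 0.12, 0.15 and 0.014. Nr3c2 was at 5.67 ± 1.69 normalized CPM in sham kidneys, 8.21 ± 1.08 at 5d and 7.02 ± 1.33 at 28d, and its log2 fold change at 5d was 0.50 (SE 0.17, edgeR adjusted p = 0.425). Nedd4l, a ubiquitin ligase that removes the epithelial sodium channel, had 0.25 at 5d against sham (SE 0.062, adjusted p = 0.120). In the kallikrein-kinin system, whose kinins Ace inactivates, 3 of 7 genes were tested and none was called. Klk1, tissue kallikrein, had 0.18 at 28d against sham (adjusted p = 0.262), and Kng1, kininogen, had 0.31 at 5d (adjusted p = 0.584).

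Ace and Mas1 were the only pair of members past the threshold by Pearson's r. Mas1 was read from 5 to 30 counts in a kidney, and its reads could not be told apart from those of Airn, which overlaps it. Over 22 kidneys centred on their group means r was 0.659 (permutation p = 0.00097, adjusted over 28 pairs 0.0272) and 0.683 without the 2 kidneys farthest from the median. Spearman's coefficient was 0.657 (permutation p = 0.00349, adjusted 0.0977), so that the pair passed by Pearson's r and not by Spearman's coefficient. Within groups r was 0.763 in sham kidneys, 0.745 at 5d and 0.120 at 28d. Agt and Mme had r = 0.569 (p = 0.00616, adjusted 0.0862) and a Spearman's coefficient of 0.551 (p = 0.0107, adjusted 0.149), and r = 0.487 without the 2 farthest kidneys. No other pair reached an adjusted p under 0.05.

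**Figure D4:**
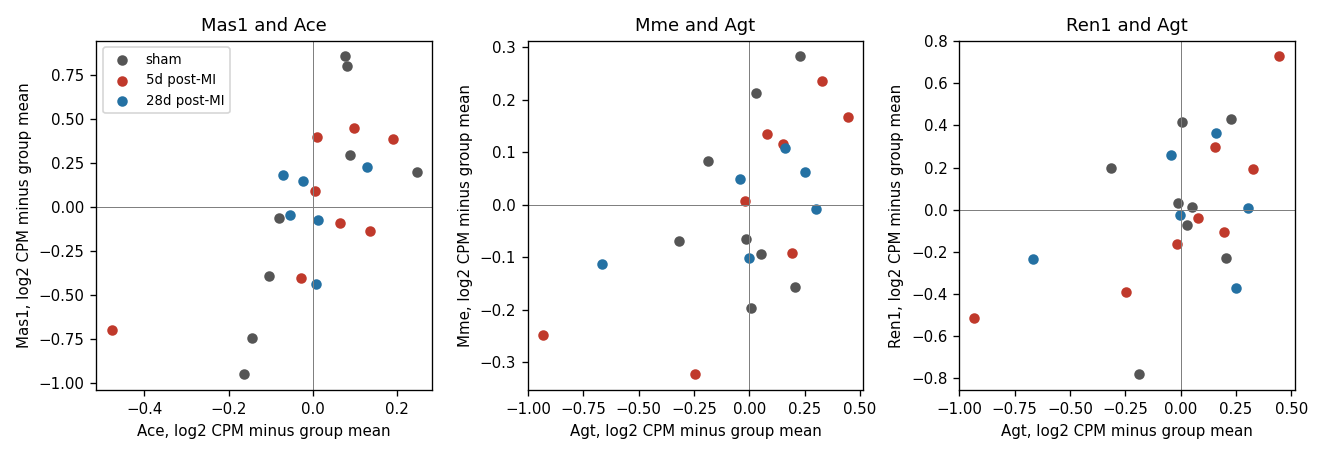
Log2 CPM minus the group mean on both axes for Mas1 and Ace, Mme and Agt, and Ren1 and Agt, 1 point for each of 22 kidneys coloured by group. Pearson's r is 0.659, 0.569 and 0.524 in this order.

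The genes given as most like each member were among the 3 with the highest r over the 22 group-centred kidneys among 12779 genes, given as a description. Those of Ace were Proc (protein C, r = 0.872), Bdh1 (a ketone body enzyme, 0.859) and Ldhd (a lactate dehydrogenase, 0.853), and without the 2 farthest kidneys these were 0.735, 0.649 and 0.815. Ren1 was most like Aqp3 (a water channel of the collecting duct, 0.734), Zfp316 (0.718) and Hoxa5 (0.705), and without the 2 farthest kidneys these were 0.816, 0.501 and 0.477. Agt was most like Snhg11 (0.801), Serpina1f (0.781) and Src (0.780), and without the 2 farthest kidneys these were 0.544, 0.753 and 0.479. Mas1 was most like Csnk1g3 (0.820), Xylb (0.774) and Fbp1 (a gluconeogenic enzyme, 0.773), Agtr1a like Fbxo40 (0.769) and Srcin1 (0.739), and Atp6ap2 like Vapa (0.782), Hnrnpr (0.734) and Rfx7 (0.720). Mme was most like Smagp (0.762), Spint2 (0.751) and Hoxb8 (0.739), and Enpep like D730001G18Rik (0.724), Ccp110 (0.721) and Hgfac (0.684). For the genes named with Mas1, Agtr1a, Atp6ap2, Mme and Enpep, r without the 2 farthest kidneys was between 0.606 and 0.824.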

How the data were processed

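RNA of 24 kidneys was sequenced by MACE, a 3′ mRNA method with unique molecular identifiers. The authors trimmed reads with Cutadapt and counted them with HTSeq, and the deposited counts are whole reads per gene. What the authors deposited as tpm is CPM on each kidney's own total, within 5e-06, without gene length. The genome is given as mm10 in the methods and mm39 in the submitters' processing notes; annotation and strand setting are not given in the sources used here, so reads of Ace, Mas1, Agtr1a and Enpep cannot be told apart from those of genes that overlap them (Gm11651, Airn, Gm48161 and Gm42628). Of 48 value columns 4 were not used, because a repeated name left them without a sample.

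Genes were kept by filterByExpr (minimum 10 counts, 12780 genes), scaled by TMM and fitted in edgeR 4.0.16 (R 4.3.3) by the robust quasi-likelihood model with 3 groups and no covariate. Tests were two-sided, with Benjamini-Hochberg adjustment over all genes tested, and a gene was called under 0.05. SE is the log2 fold change over the square root of F. Levels used a prior count of 2 on the log2 scale. DESeq2 1.42.0, limma 3.58.1 and scipy 1.17.1 served for alternatives and permutation tests (correlations by 100000 permutations within groups). In simulated counts for 5d against sham over 12780 genes, 186 of 200 genes changed by a log2 of 1 were called, along with 8 unchanged ones. The adjustment depends on how many genes change, and in the data 9 genes were called at 5d against sham. The simulated share therefore does not give the chance that a changed member is called. No library was a repeat of another in its group, with chi-squared over degrees of freedom of 1.69 to 7.21 for 71 pairs within groups. Pairs across groups were not checked in this way. Mice are separate animals. Symbols matched 51948 of 56941 identifiers.

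Members and lists were chosen with earlier results of these data known. The genes named are the members, of each other list the called genes and the 2 with the lowest p, further pathway genes (Agtr1b, Agtr2, Akr1b7, Ptgs2, Nr3c2 and Agtrap), and the 3 genes most like each member; some genes under this rule are not reported here. Alternatives were DESeq2, limma's voom, other scalings and filters, the 2 groups alone, a replicate block, marker covariates and each kidney left out. The counting limit of 3 counts covers counting error only.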

Additional observations from a re-analysis of the deposited data

Results flagged for a closer look

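Ace in 5d post-MI replicate 2 was 105 normalized CPM, far below the nearest kidney of its group at 144 (gap over range 0.62). Agtr1a in 28d post-MI replicate 4 was 34.0 normalized CPM, above the nearest at 28.2 (gap over range 0.682). In all, 24 groups of values were checked in this way, of which chance flags about 1 in 20.

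The levels at the 2 times differed for Ren1, by −1.15 on the log2 scale (28d against 5d, edgeR adjusted p = 0.00886), and for Enpep, by −0.321 (adjusted p = 0.0345). The series held no sham kidneys from 28d, so that a difference in the response to MI and the longer time since surgery cannot be told apart.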

How the results depend on the processing

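Calls for Ren1 at 28d against 5d held in 12 of 14 alternatives and those for Enpep in 7 of 14. Members called were 1 at 5d against sham with DESeq2 and with no filter, 2 at 28d against sham with no filter, and at 28d against 5d 1 with limma's voom, with the 2 groups alone, without kidneys with adrenal RNA or with podocyte markers, and 0 with immediate early or red blood cell genes as a covariate. Podocyte, immediate early and red blood cell covariates were chosen after seeing the data. With 1 kidney left out, members called were 0 to 1, 0 to 0 and 1 to 2 at 5d against sham, 28d against sham and 28d against 5d, and all genes called were 1 to 38, 0 to 29 and 41 to 84. All genes called, 9, 3 and 53 in this order, became 35, 42 and 96 with DESeq2, 80, 94 and 160 with no filter and 2, 31 and 26 with 2 groups alone, and 5 and 5 against sham with voom. They were 1 at 5d with adipocyte markers, 2 and 1 against sham without adrenal RNA, 0 at 28d against sham with proximal tubule markers, 0 at 5d with podocyte markers, 0, 8 and 0 with immediate early genes, and 0 at 5d against sham and 0 at 28d against 5d with red blood cell genes. Replicate numbers did not pair the kidneys (18 pairs, r −0.127 to 0.0899; 2 of 21 kidneys were most like their own number): with a replicate block 2, 24 and 80 genes were called, Ren1 at 28d against 5d was −1.25 (adjusted p = 0.0482), Enpep −0.28 (0.174) and Ace 0.28 (0.042). Member pairs past the threshold were 2 with the deposited tpm. Some values that were not called changed sign. Ace at 5d against sham was −0.010 with voom, −0.023 with adipocyte markers, −0.012 without adrenal RNA and, in deposited tpm units, −0.51. Atp6ap2 at 5d was 0.0023 with the replicate block, 0.0037 without adrenal RNA, 0.015 with podocyte markers and 0.050 with red blood cell genes. Mas1 at 28d against sham was 0.11 with voom, 0.068 with the replicate block, 0.013 with podocyte markers; its difference of group means was 0.11 in log2 CPM and −0.14 in deposited tpm units. At 28d against 5d Mas1 was 0.42, and −0.074 with red blood cell genes. Agt at 28d against sham was −0.053 with adipocyte markers, −0.0017 without adrenal RNA and −0.11 with podocyte markers. Mme at 28d against 5d was −0.032 with the replicate block, and Agtr1a 0.018 with proximal tubule markers. Leaving out 1 kidney gave ranges of −0.025 to 0.062 for Ace and −0.036 to 0.015 for Atp6ap2 at 5d against sham, −0.037 to 0.13 for Agt and −0.14 to 0.15 for Mas1 at 28d against sham, and −0.0086 to 0.070 for Mme at 28d against 5d. With a minimum of 30 counts Mas1 was not tested.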
